A study of Mus musculus with 16 samples.

Results

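The H3K36me3 landscape of mouse medulloblastomas was compared between tumours that overexpressed SmoM2 and tumours in which Sufu and Spop were both knocked out (double knockout, DKO). The comparison used the 2 deposited lists of H3K36me3 regions, 1 for each genotype, restricted to chromosomes 1 to 19. These held 87539 regions in SmoM2 and 65150 in DKO tumours, 152689 of the 209255 regions and peaks in the 6 lists of the series. All tumours were taken at postnatal day 13, and the series also profiled H3K27ac, Gli2 and input DNA by chromatin immunoprecipitation and sequencing (ChIP-seq). SmoM2 is a constitutively active form of Smoothened, the transducer that switches on Hedgehog signalling. Sufu and Spop both restrain Gli proteins, Sufu by binding them and Spop by presenting them to a ubiquitin ligase. The labels name neither a promoter or Cre line nor the cells in which the genes were altered, nor do they say whether the 2 libraries behind each list came from separate animals. Each list stands for both libraries, so no difference between genotypes has a replicate check, no test across animals was possible, and the read depth is unknown. Gene annotation of the mm9 build, in which all positions are given, was not used here, so positions stand in for genes and the tumour cell type was not checked against marker genes.

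H3K36me3 is laid down by SETD2, a methyltransferase that travels with elongating RNA polymerase II. The mark therefore covers the bodies of transcribed genes rather than their promoters, and usually forms domains that begin downstream of the start site. H3K27ac marks active promoters and enhancers, so the start of an active gene typically shows acetylation that gives way to H3K36me3 further into the gene. In the cerebellum, Hedgehog signalling drives proliferation of granule neuron progenitors, the cells from which medulloblastomas of this pathway arise.

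H3K36me3 regions, as deposited, were fewer and wider in DKO tumours. The SmoM2 list covered 137 Mb, or 5.54% of the autosomes, and the DKO list 163 Mb, or 6.58%. The ratio of DKO to SmoM2 was 0.744 for the number of regions and 1.19 for the covered length. The middle width was 621 bp in SmoM2 and 938 bp in DKO tumours, and the upper quartile was 1580 bp and 2487 bp. Regions of at least 10 kb were 1928 in SmoM2 against 3482 in DKO tumours and held 21.2% and 37.2% of the marked bases. At the other end, regions under 500 bp made up 42.7% of the SmoM2 and 29.6% of the DKO list, but only 7.18% and 3.41% of the marked bases. The difference in covered length was similar on every autosome, with ratios from 1.15 on chromosome 19 to 1.24 on chromosome 14. Chromosome 11 was the most densely marked in both genotypes, with 8.92% covered in SmoM2 and 10.4% in DKO tumours, and chromosome 3 the least, with 3.64% and 4.49%.

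The lists also differed in their smallest features. The narrowest region was 112 bp in the SmoM2 and 151 bp in the DKO list, and the shortest gap between neighbouring regions was 449 bp and 605 bp, in each case about 4.01 times the narrowest width. When SmoM2 regions were joined across every gap shorter than the shortest DKO gap and regions under the narrowest DKO width were left out, the number ratio turned from 0.744 to 1.06 and the covered ratio was 1.11. The lower number of DKO regions therefore did not hold once both lists had the same shortest gap and narrowest width, whereas the larger covered length did. Region widths were not recomputed in that setting, so whether DKO regions would still be wider was not tested. The fold enrichment over background, the authors' own value for each region, had a median of 3.32 in SmoM2 and 3.13 in DKO regions, and it ranks a region only within its own list.

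**Figure D1:**
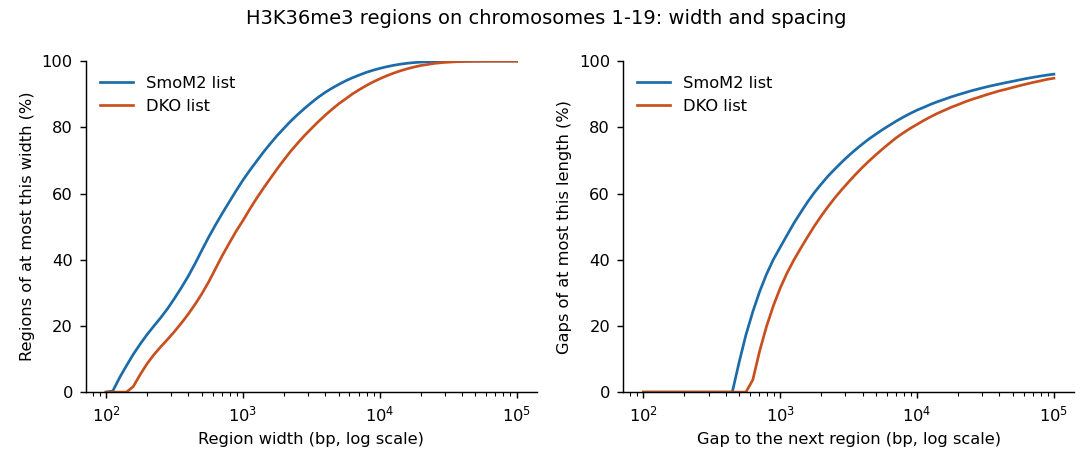
Cumulative share of H3K36me3 regions by width (left) and of gaps between neighbouring regions by length (right), in percent, on log axes in bp, for the SmoM2 list (87539 regions) and the DKO list (65150 regions) on chromosomes 1 to 19. The DKO curves lie to the right of the SmoM2 curves, with narrowest regions of 151 and 112 bp and shortest gaps of 605 and 449 bp.

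The same sequence was marked in both genotypes for the most part. The lists shared 117 Mb, which was 85.2% of SmoM2 and 71.7% of DKO bases. By region, 74.9% of SmoM2 regions (65594 of 87539, Wilson 95% interval 74.6–75.2%) overlapped a DKO region by at least 1 base. In the other direction 69.4% of DKO regions (45241 of 65150, 69.1–69.8%) overlapped a SmoM2 region. These intervals cover counting error only. Regions without a partner were narrow, with a median of 262 bp in SmoM2 and 407 bp in DKO tumours, compared with 912 and 1576 bp for those with a partner. They held 5.52% of SmoM2 and 6.40% of DKO bases. Many DKO regions spanned several SmoM2 regions: 14441 DKO regions (22.2%) overlapped 2 or more SmoM2 regions and 1121 overlapped 5 or more, up to 17. The reverse was less frequent, with 3885 SmoM2 regions (4.44%) overlapping 2 or more DKO regions. Both counts are from the lists as deposited, where gaps start at 449 bp in SmoM2 and 605 bp in DKO tumours. Closely spaced regions could thus stay separate only in the SmoM2 list, and the counts were not repeated with the same shortest gap.

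In the lists as deposited, most of the DKO bases that were not marked in SmoM2 tumours lay inside SmoM2 domains, in the gaps between SmoM2 regions. To show this, regions of a list at most 10 kb apart were joined to domains. Of 46.0 Mb marked only in DKO tumours, 36.6 Mb (79.6%) fell within joined SmoM2 domains and 9.39 Mb outside them. Of 20.3 Mb marked only in SmoM2 tumours, 15.1 Mb (74.2%) fell within joined DKO domains. Marked sequence outside any joined domain of the other genotype was therefore 5.78% of the DKO and 3.82% of the SmoM2 bases. These are shares of bases, which are not independent of each other, and they are given without an interval. They rest on lists whose shortest gap was 449 bp in SmoM2 and 605 bp in DKO tumours. With the same shortest gap and narrowest width, 75.9% of DKO bases were shared instead of 71.7%. For SmoM2 bases the shared part was 84.6% instead of 85.2%. The split inside and outside joined domains was not recomputed in that setting.

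After joining, the landscapes of both genotypes were close in extent. There were 12983 domains in SmoM2 and 12474 in DKO tumours, a ratio of 0.961, spanning 271 and 278 Mb, a ratio of 1.03. A SmoM2 domain was assembled from 6.74 regions on average and a DKO domain from 5.22, counted as deposited, with unlike shortest gaps in the lists. The marked share of the spanned sequence was 50.5% in SmoM2 and 58.5% in DKO tumours. The joined domains shared 242 Mb, which was 89.1% of the SmoM2 and 86.9% of the DKO span.

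Long domains were found in both genotypes almost without exception. Of domains of at least 50 kb, 1652 of 1653 in SmoM2 and 1703 of 1703 in DKO tumours overlapped a domain of the other genotype. Of those of at least 100 kb, all 296 in SmoM2 and all 333 in DKO tumours did so, and 94.2% and 93.5% of their span lay in domains of the other genotype. In 3691 pairs, 1 SmoM2 and 1 DKO domain overlapped only each other and at least 1 of them reached 20 kb. Their median length ratio was 1.01, and 84.4% differed by at most 1.25 times. They held 61.8% of the SmoM2 and 60.7% of the DKO joined span. Of all 7958 such pairs of any length, 62.3% differed by at most 1.25 times. The ratio was below 0.244 in 5% of all pairs and above 6.31 in 5%. The edges of the 3691 pairs lay a median of 706 bp apart, with 57.9% within 1 kb and 86.0% within 5 kb. Within these 3691 pairs the marked share of the domain was higher in DKO tumours in 3088 pairs (83.7%), with medians of 55.7% in SmoM2 and 65.3% in DKO tumours. The number of regions was lower in DKO tumours in 3010 pairs and higher in 394. Marked shares and region numbers of these pairs rest on the lists as deposited, whose shortest gaps differ. They were not recomputed with the same shortest gap and narrowest width.

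The longest domain of both genotypes was the same, on chromosome 8. It ran from 10355944 to 10638252 in SmoM2 tumours (282 kb, 91 regions, 92.7 kb marked) and from 10317786 to 10637673 in DKO tumours (320 kb, 88 regions, 157 kb marked). Acetylation there was sparse, with 1.01 kb of H3K27ac in SmoM2 against 0.818 kb in DKO tumours over the DKO span, and no Gli2 peak. The fourth longest domain in each list was also shared. It lay on chromosome 7, from 132979330 to 133222425 in SmoM2 and from 132974911 to 133223245 in DKO tumours, and was marked by H3K36me3 over 82.2 kb in SmoM2 against 132 kb in DKO tumours. Unlike the chromosome 8 domain it was heavily acetylated, over 55.2 kb in SmoM2 against 100.3 kb in DKO tumours across the DKO span, and held 1 SmoM2 and 3 DKO Gli2 peaks. The DKO domain on chromosome 5 at 77121642–77429739 (308 kb) overlapped 5 separate SmoM2 domains, although 260 kb of it lay within them. It carried 114 kb of H3K36me3 in SmoM2 against 157 kb in DKO tumours. The domain on chromosome 9 at 6927444–7174580 (247 kb in DKO tumours) had 71.1 kb marked in SmoM2 against 112 kb in DKO tumours and no H3K27ac region in either. Marked lengths of these domains are not scaled. Over the autosomes the DKO list covered 1.19 times as much H3K36me3, and H3K27ac covered 0.756% in SmoM2 against 1.01% in DKO tumours.

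Domains found in only 1 genotype were mostly short and made of a single region. In SmoM2 tumours 2967 domains had no overlap with a DKO domain, 2417 of them a single region, with a median length of 259 bp and 0.841% of the marked bases. In DKO tumours 2681 had none, 2195 of them a single region, with a median of 428 bp and 1.00% of the marked bases. Only 83 of the SmoM2 and 93 of the DKO domains of this kind reached 10 kb. The longest in SmoM2 tumours lay on chromosome 4 at 127944820–127999884 (55.1 kb), with 11 regions covering 3.98 kb. The longest among DKO domains was on chromosome 19 at 41676012–41725646 (49.6 kb), with 15 regions covering 11.6 kb and 1 DKO Gli2 peak. It was followed by chromosome 5 at 105231372–105279138 (47.8 kb), with 10 regions covering 9.52 kb. None of these 3 overlapped an H3K27ac region of either genotype. They are sparsely marked stretches of small regions linked by joining, not continuous blocks.

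To find places where the genotypes differed beyond the list-wide difference in covered length, the autosomes were divided into 24731 windows of 100 kb. Covered bases were scaled by each list's own total, which multiplied SmoM2 lengths by 1.09 and DKO lengths by 0.921. Windows with at least 10 kb of scaled length in either list were compared, 5061 in all, and these held 92.1% of SmoM2 and 91.2% of DKO bases. A window was counted as different when the ratio of scaled lengths, with 1 kb added to both, reached 2. Before scaling, 4451 of the 5061 windows (87.9%) had more covered bases in DKO tumours, and after scaling 43.7% did.

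Few windows differed. The scaled length was at least 2-fold higher in DKO tumours in 103 windows (2.04% of those compared) and at least 2-fold higher in SmoM2 tumours in 35 windows (0.692%). The other 4923 windows (97.3%) lay within 2-fold, and 80.9% within 1.25-fold. The ratio had a median of 0.975, with 5% of windows below 0.780 and 5% above 1.56. Scaled lengths followed each other closely across windows (Pearson r = 0.952, Spearman rho = 0.934, 5061 windows), as a description of windows that share lists and caller and are not replicates. Differing windows were thinly marked. Among windows with 10 to 20 kb of scaled length in the higher list, 75 of 1793 were higher in DKO and 24 in SmoM2 tumours, whereas none of the 238 windows with at least 60 kb differed 2-fold in either direction. In those 238 densely marked windows the median ratio was 0.913. Scaling alone places a window covered to the same extent in both lists below 1, so this value does not show less marking in DKO tumours. Windows higher in DKO tumours accounted for 5.31% of the summed scaled differences over all windows, and those higher in SmoM2 tumours for 1.94%.

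**Figure D2:**
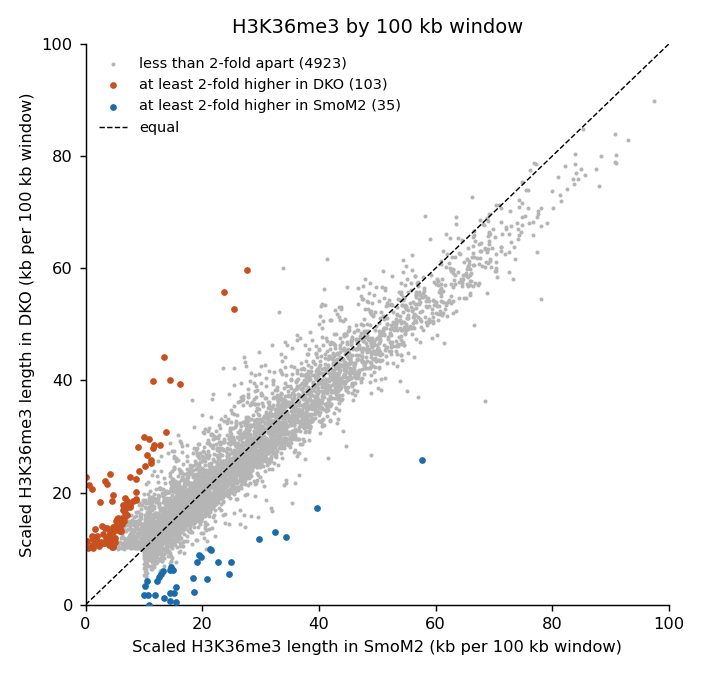
Scaled H3K36me3 length in kb for each of the 5061 compared windows of 100 kb, in SmoM2 (horizontal) against DKO tumours (vertical), with the line of equality. Most windows follow the line, 103 are at least 2-fold higher in DKO and 35 in SmoM2 tumours, and the most densely marked windows lie below it, where scaling alone places windows covered alike.

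The excess of windows higher in DKO tumours depended on how regions were filtered. DKO windows made up 74.6% of the differing windows as deposited, 75% with the same shortest gap and narrowest width in both lists (117 windows, 2.28% of those compared, against 39, 0.76%), and 91.7% (189 against 17) without scaling. When only regions enriched at least 3-fold were kept, 60 windows were higher in DKO and 68 in SmoM2 tumours, so that the DKO share was 46.9% and the order reversed. That threshold applies 1 fold value to lists whose medians differ, and it took the number ratio of DKO to SmoM2 regions from 0.744 to 0.557. With joined domains in place of regions, 6955 windows were compared. Of these, 409 were higher in DKO tumours (5.88%) and 355 in SmoM2 tumours (5.1%), so that the DKO share was 53.5%.

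Joining separated a pair of patterns among the differing windows. Of the 103 windows higher in DKO tumours, 38 were also at least 2-fold higher as joined domains, and of the 35 higher in SmoM2 tumours 17 were. In the others, the joined domains of both genotypes differed by less than 2-fold in the window, with a larger difference in how much of it was marked. No window changed direction past 2-fold on joining. Most windows that differed as joined domains (350 of 409 in DKO and 321 of 355 in SmoM2 tumours) had less than 10 kb of scaled length as deposited and had not been compared there.

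Windows higher in DKO tumours included several where joined domains of both genotypes were present and marking was denser in DKO tumours. In the chromosome 10 and chromosome 1 windows given here, the joined domains also covered more of the window in DKO tumours. On chromosome 10 at 76500001–76600000, 24 SmoM2 regions covered 25.3 kb and 12 DKO regions covered 64.9 kb. The longest region in that window measured 5.36 kb in SmoM2 against 45.1 kb in DKO tumours. The scaled lengths were 27.6 and 59.7 kb, a 2.12-fold difference, which fell to 1.65-fold after joining (58.8 against 100 kb before scaling). The window also held 1.32 kb of H3K27ac in DKO and none in SmoM2 tumours. On chromosome 1 at 71600001–71700000, H3K36me3 covered 21.7 kb in SmoM2 against 60.7 kb in DKO tumours (2.30-fold after scaling and 1.53-fold after joining). Joined domains there covered 55.9 kb in SmoM2 against 88.6 kb in DKO tumours. The scaled difference was 32.1 kb in both of these windows, the largest towards DKO tumours as deposited. The chromosome 1 window held 0.170 kb of H3K27ac in DKO and none in SmoM2 tumours.

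Among the 10 windows with the largest scaled difference towards DKO tumours, scaled H3K27ac was higher in DKO tumours in 6, lower in none and called in neither genotype in 4. After joining, 2 of the 10 were still at least 2-fold apart in H3K36me3. On chromosome 1 at 120800001–120900000, H3K36me3 covered 10.5 kb in SmoM2 against 43.3 kb in DKO tumours, a 3.27-fold difference after scaling and 1.91-fold after joining. H3K27ac there covered 5.18 kb in SmoM2 against 13.7 kb in DKO tumours, 1.95-fold after scaling. The window held 3 Gli2 peaks of the DKO list, which has 1397 on the autosomes, and none of the SmoM2 list, which has 136. On chromosome 11 at 68100001–68200000, H3K36me3 covered 13.3 kb in SmoM2 against 43.5 kb in DKO tumours (2.64-fold after scaling and 1.59-fold after joining), and H3K27ac 3.34 and 9.18 kb. On chromosome 8 at 14900001–15000000, H3K36me3 covered 23.3 kb in SmoM2 against 57.2 kb in DKO tumours (2.02-fold after scaling and 1.12-fold after joining), with 2.77 kb of H3K27ac in DKO tumours only. Chromosome 7 held a pair of windows not far apart, at 141900001–142000000 (31.0 kb in SmoM2 against 65.2 kb in DKO tumours) and 142300001–142400000 (12.4 and 47.9 kb). The first of these was 1.75-fold apart after scaling, short of 2-fold, and 1.11-fold after joining, with a scaled H3K27ac ratio of 1.40. The second was 3.11-fold apart after scaling and 1.37-fold after joining, and H3K27ac was called in neither genotype. The same was true of H3K27ac on chromosome 16 at 59500001–59600000, where H3K36me3 covered 14.8 and 42.7 kb (2.35-fold after scaling and 1.12-fold after joining).

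In other windows SmoM2 tumours had few or small regions and DKO tumours had many. On chromosome 17 at 68200001–68300000, SmoM2 tumours had a single region of 0.112 kb and DKO tumours had 16 regions covering 24.7 kb, the longest of 4.05 kb. After joining, the window was covered over 0.112 kb in SmoM2 against 56.3 kb in DKO tumours. Neither H3K27ac nor Gli2 was called in that window in either genotype. On chromosome 10 at 91500001–91600000, which stood out after joining, 3 SmoM2 regions covered 1.01 kb and 26 DKO regions 22.5 kb, with 1.10 kb of H3K27ac in DKO tumours only. On chromosome 15 at 10500001–10600000, 12 SmoM2 regions covered 10.8 kb and 22 DKO regions 31.0 kb (26.9 and 90.9 kb as joined domains), and H3K27ac covered 0.239 kb in SmoM2 against 6.30 kb in DKO tumours, with 1 DKO Gli2 peak. The largest joined difference towards DKO tumours was on chromosome 7 at 142000001–142100000, with 16.9 kb in SmoM2 against 88.2 kb in DKO tumours. On chromosome 4 at 81100001–81200000 joined domains covered 32.9 kb in SmoM2 against 96.5 kb in DKO tumours. In these chromosome 7 and chromosome 4 windows H3K27ac was called in neither genotype.

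Of the 10 windows with the largest scaled difference in kb towards SmoM2 tumours, 6 were among the 35 at least 2-fold higher, and 2 were at least 2-fold apart after joining. The largest difference was on chromosome 2 at 24500001–24600000, where 34 SmoM2 regions covered 62.7 kb and 25 DKO regions 39.4 kb. This was a 1.87-fold difference after scaling, short of 2-fold, and joined domains filled the whole window in both genotypes (100.0 kb), so only the density of marking differed. The window held 1 SmoM2 Gli2 peak and no H3K27ac region. On chromosome 3 at 97500001–97600000, H3K36me3 covered 52.7 kb in SmoM2 against 28.0 kb in DKO tumours, 2.19-fold after scaling. After joining the difference was 1.37-fold. H3K27ac covered 0.980 kb in SmoM2 against 0.904 kb in DKO tumours, a ratio of DKO to SmoM2 of 0.738 after scaling. Scaling alone places equal H3K27ac lengths below 1, so this ratio does not show a difference in acetylation. On chromosome 19 at 46500001–46600000, H3K36me3 covered 44.7 kb in SmoM2 against 29.0 kb in DKO tumours (1.80-fold, also short of 2-fold). Acetylation was wide there and followed the same direction, with 30.9 kb in SmoM2 against 22.8 kb in DKO tumours. The window held 2 peaks of the longer DKO Gli2 list.

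On chromosome 12 at 41400001–41500000 the difference held both as deposited and after joining. There 35 SmoM2 regions covered 22.4 kb and 11 DKO regions 5.94 kb, a 3.95-fold difference after scaling and 2.88-fold after joining. H3K27ac covered 0.436 kb in SmoM2 tumours and was not called in DKO tumours. On chromosome 7, adjacent windows at 129600001–129800000 together carried 56.9 kb in SmoM2 against 26.7 kb in DKO tumours (2.18-fold in the first and 1.22-fold in the second after joining), with no H3K27ac region in either. After joining, the window with the largest difference towards SmoM2 tumours was on chromosome 10 at 5000001–5100000, where 26 SmoM2 regions covered 9.96 kb and no DKO region was called. Joined, they spanned 81.4 kb. On chromosome 8 at 116200001–116300000, 27 SmoM2 regions covered 13.2 kb and 3 DKO regions 0.794 kb, again with no H3K27ac region. On chromosome 4 at 128100001–128200000, 27 SmoM2 regions covered 14.2 kb and 2 DKO regions 0.559 kb. H3K27ac went the other way there, with 0.204 kb in SmoM2 against 0.522 kb in DKO tumours.

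**Figure D3:**
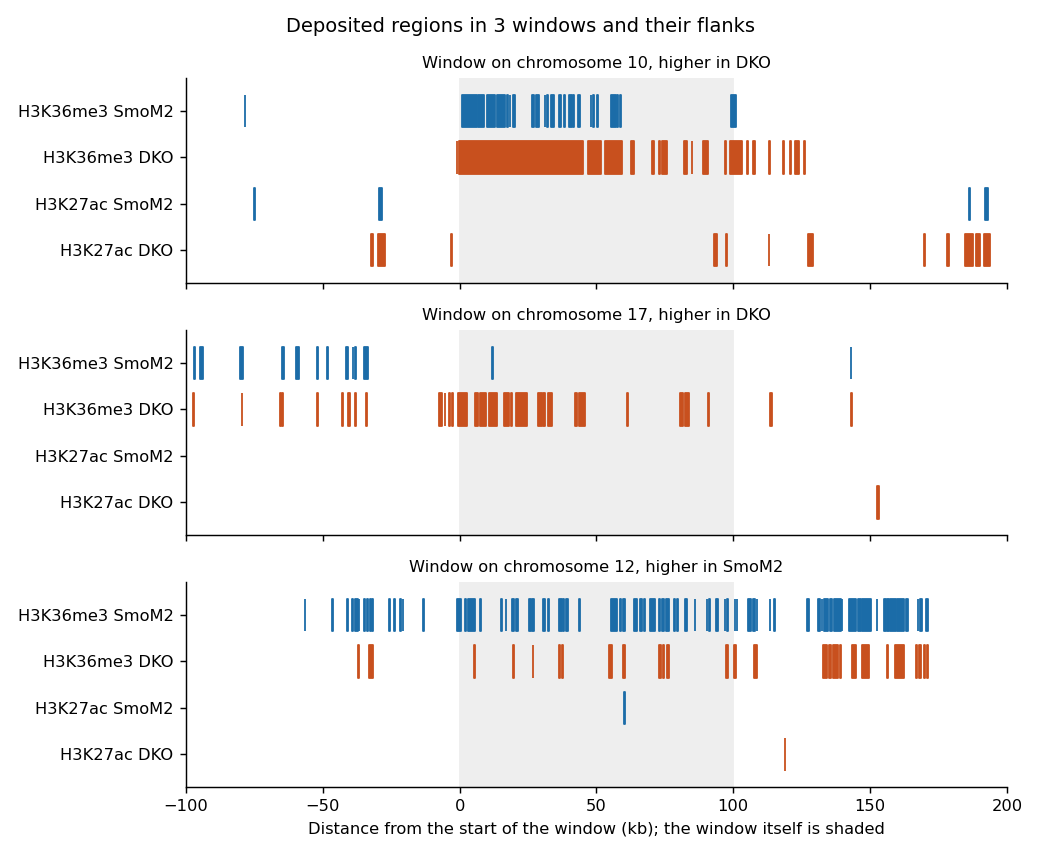
Deposited H3K36me3 and H3K27ac regions of SmoM2 (blue) and DKO tumours (orange-red) in 3 windows of 100 kb (shaded) and 100 kb to either side, by distance from the start of the window in kb. In the chromosome 10 window DKO regions fill gaps between SmoM2 regions and also lie in a long stretch without SmoM2 regions. In the chromosome 17 window SmoM2 tumours have 1 region against 16, and in the chromosome 12 window 35 SmoM2 regions stand against 11 in DKO tumours.

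H3K27ac, which played no part in choosing the windows, tended to differ in the same direction. H3K27ac lengths were scaled by their own list totals in the same way, and windows with at least 1 kb in either list were used, with 200 bases added to both lengths. Of the 3170 compared H3K36me3 windows with such H3K27ac, 305 (9.62%) had an H3K27ac ratio of at least 2 towards DKO and 160 (5.05%) towards SmoM2 tumours. Among the 56 windows with higher H3K36me3 in DKO tumours, 24 had at least 2-fold more H3K27ac there (42.9%, 30.8–55.9%) and 1 had at least 2-fold more in SmoM2 tumours. Among the 18 with higher H3K36me3 in SmoM2 tumours, 12 had at least 2-fold more H3K27ac there (66.7%, 43.7–83.7%) and none had it in DKO tumours. The median H3K27ac ratio of DKO to SmoM2 was 1.59 in the first group and 0.482 in the second, compared with 0.986 over all 3170 windows. The ratio was above 1, towards DKO tumours, in 40 of the 56 windows of the first group and 1 of the 18 of the second. Over all 3170 windows it was above 1 in 1552 (49.0%). Scaling alone places equal H3K27ac lengths below 1, so a ratio below 1 does not by itself show less acetylation in DKO tumours.

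The relation was weaker under joining and slight across the whole range. With joined H3K36me3 domains, 53 of 202 windows higher in DKO (26.2%) and 49 of 172 higher in SmoM2 tumours (28.5%) had at least 2-fold more H3K27ac in the same genotype. Over all 4044 windows of that setting with H3K27ac the shares were 10.3% towards DKO and 6.01% towards SmoM2 tumours. With the same shortest gap and narrowest width the shares were 40.6% and 60%, compared with 9.67% and 5.15% over all windows. Over all 3170 windows the log2 ratios of the marks had a Pearson r of 0.248 and a Spearman rho of 0.187. Per the labels' protocols a lysate was divided among the antibodies, so libraries of both marks may come from the same tumours. Many differing windows carried little H3K27ac: 54.4% of those higher in DKO and 51.4% of those higher in SmoM2 tumours reached 1 kb in either genotype, compared with 62.9% of windows within 2-fold.

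**Figure D4:**
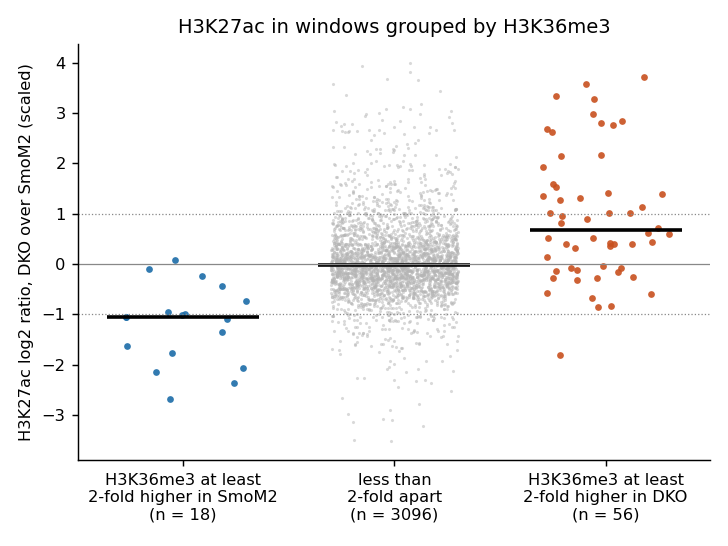
Log2 ratio of scaled H3K27ac length, DKO over SmoM2, in compared windows with at least 1 kb of H3K27ac, grouped by whether H3K36me3 was at least 2-fold higher in SmoM2 (18 windows), less than 2-fold apart (3096) or at least 2-fold higher in DKO tumours (56). Points are windows, black bars medians and dotted lines a 2-fold difference, and 1 of the 18 points on the left lies above 0.

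Gli2 peaks were uncommon in the windows, and the DKO list (1397 peaks on the autosomes) was longer than the SmoM2 list (136). DKO Gli2 peaks were present in 20 of the 103 windows with higher H3K36me3 in DKO tumours (19.4%, 12.9–28.1%), in 5 of the 35 with higher H3K36me3 in SmoM2 tumours (14.3%, 6.26–29.4%) and in 432 of the 4923 within 2-fold (8.78%, 8.02–9.60%). The intervals of the differing groups overlap each other, and a link with the direction of the H3K36me3 difference was not tested. The interval of windows higher in DKO tumours lies above that of windows within 2-fold, and that of windows higher in SmoM2 tumours includes it. The intervals cover counting error only, and windows are not replicates. SmoM2 Gli2 peaks were present in 1 of the 103, none of the 35 and 58 of the 4923 windows.

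Around long H3K36me3 domains, acetylation was concentrated just outside the edges in both genotypes. Joined domains of at least 40 kb numbered 2286 in SmoM2 and 2382 in DKO tumours. H3K27ac of the same genotype covered most sequence in the bin of 1 kb centred 2.50 kb outside the edge, at 7.48% in SmoM2 and 9.55% in DKO tumours. Between 10 and 20 kb inside the edge it covered 1.70% and 2.47%, and between 10 and 20 kb outside 2.03% and 2.54%. For comparison, H3K27ac covered 0.756% of the autosomes in SmoM2 and 1.01% in DKO tumours. H3K36me3 itself covered 52.4% in SmoM2 and 59.9% in DKO tumours between 10 and 20 kb inside the edge, and by construction nothing for 10 kb outside it. The bin with most acetylation was thus the same in both genotypes. H3K27ac covered more in DKO tumours at every distance measured, but these shares are not scaled for the larger coverage of the DKO H3K27ac list.

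Domains were also sorted by whether acetylation lay near 1 edge, both edges or neither. H3K27ac lay within 5 kb of exactly 1 edge in 961 SmoM2 domains (42.0%) and 1074 DKO domains (45.1%). It lay near both edges in 231 (10.1%) and 373 (15.7%), and near neither in 1094 (47.9%) and 935 (39.3%). Where most edges lack H3K27ac, single edges outnumber double ones even if the edges are independent. These counts therefore do not show a 1-sided pattern, which was not tested. Domains with H3K27ac anywhere inside made up 49.8% in SmoM2 and 60.8% in DKO tumours. The DKO H3K27ac list as a whole was longer, with 28987 regions on the autosomes against 21211, and its part in the higher share of acetylated DKO edges was not tested.

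**Figure D5:**
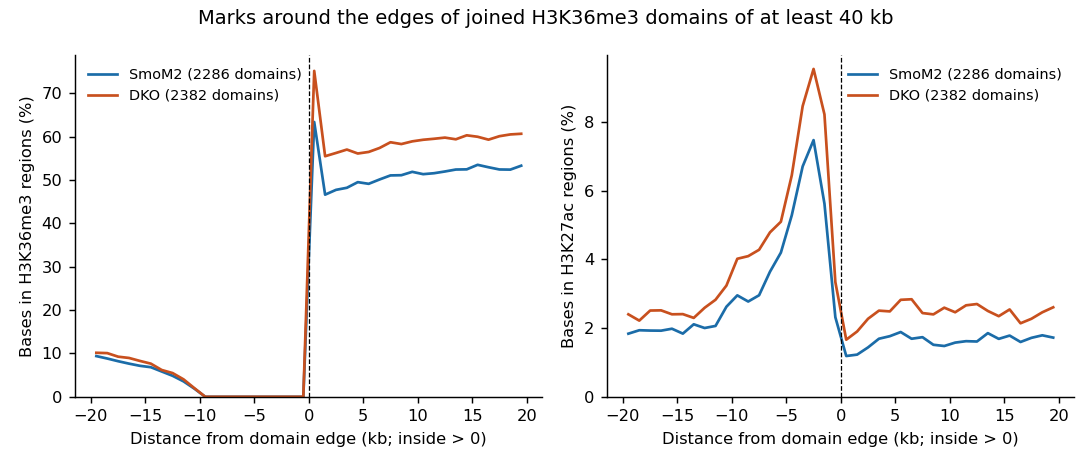
Share of bases in H3K36me3 (left) and H3K27ac regions (right) of the same genotype, in percent, by distance in kb from the edges of joined H3K36me3 domains of at least 40 kb (2286 in SmoM2 and 2382 in DKO tumours, both edges combined, positive distances inside). H3K27ac is highest 2.50 kb outside the edge in both genotypes, at 7.48% and 9.55%.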

How the data were processed

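ChIP-seq was done on 16 libraries, 4 of them for H3K36me3 (2 per genotype). The submitters' processing notes name MACS2, bedtools, BWA and Trimmomatic 0.36, with mm9 as the build. The sources used here do not give what each did, or whether reads were pooled or peaks merged to give 1 list per genotype and antibody. The deposited lists give each region's start and end among other columns, the authors' fold enrichment as a ratio over background, the q value as −log10, and a score of 10 times −log10 q. The depth of each library is unknown. The DKO lists carry another abbreviation and were tied to DKO by the labels. Covered bases, overlaps (at least 1 base) and joined domains were computed from the deposited positions. Windows were fixed at 100 kb, with mm9 chromosome lengths from GenomeInfoDb 1.38.1. Named positions follow a rule: the 10 windows with the largest scaled difference in each direction, the 5 longest domains of each list and the 5 longest found in only 1 list. The 5 joined windows with the largest difference in each direction were added. Only some of these are described. Members, lists and rules were chosen with earlier results of these data known. Intervals are Wilson 95% intervals for counting error. Functions were tested on simulated data. Alternatives covered joining, filters, window size, scaling and overlap rule. No p-value was computed. Scripts ran in Python 3.11.15 with pandas 2.3.3 and numpy 2.4.6, correlations with scipy 1.17.1 and intervals with statsmodels 0.14.6, and plots with matplotlib 3.10.9. No genome of build mm9 was used, so sequences and genes are not analysed here.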

Additional observations from a re-analysis of the deposited data

Results flagged for a closer look

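H3K36me3 regions were also called on the sex chromosomes, which the comparison of autosomes leaves out: 1936 on chromosome X and 7 on chromosome Y in the SmoM2 list, and 1913 on chromosome X and 1 on chromosome Y in the DKO list. They enter only the alternative with all sequences.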

How the results depend on the processing

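No paired analysis was possible because the 2 libraries of a genotype share 1 list. For that reason, leaving out each replicate could not be run either. Settings on the smallest gap and width, ratios of 1.5 and 3 and the H3K27ac alternatives were added after seeing the data. The covered ratio stayed between 1.03 and 1.27. The number ratio turned from 0.744 to 1.06 with the same smallest gap and width, and was 0.557 at the lowest. Shared bases, as percent of SmoM2 and then of DKO bases (85.2 and 71.7 as reported), were 87.1 and 78.9 with regions joined at most 1 kb apart, 89.1 and 86.9 at 10 kb, 83.7 and 75.4 at a fold of at least 3, 88.2 and 69.2 with lists of equal length, 87.4 and 70.7 at 500 bp or more, 84.6 and 75.9 with the same smallest gap and width, and 71.3 for DKO with all sequences. Overlapping regions, in the same order (74.9 and 69.4 as reported), were 71.0 and 68.5, 77.1 and 78.5, 67.8 and 78.4, 83.2 and 59.4, 86.0 and 68.0, 77.0 and 67.3, and 68.9 for DKO. They were 64.7 and 48.3 when at least 50% of a region had to be covered. Windows higher in DKO and in SmoM2 tumours (103 and 35) numbered 409 and 355 with joining at 10 kb, 60 and 68 at a fold of at least 3, 178 and 12 with lists of equal length, 189 and 17 unscaled, 28 and 11 with at least 20 kb, 20 and 8 in windows of 1 Mb, 290 and 108 at a ratio of 1.5, and 31 and 15 at a ratio of 3. With joining at 1 kb, 140 were higher in DKO and 59 in SmoM2 tumours. Joined domains with a partner (77.1% of SmoM2 and 78.5% of DKO domains) made up 73.6% and 74.0% when joined at 5 kb and 80.6% and 82.4% at 20 kb. Unshared DKO and SmoM2 bases inside joined domains of the other list (79.6% and 74.2%) made up 70.5% and 64.1% at 5 kb and 85.8% and 81.7% at 20 kb. The share of differing windows with H3K27ac at least 2-fold higher in the same genotype fell to 26.2% (DKO) and 28.5% (SmoM2) with joining at 10 kb. The cause of these shifts was not tested. The scaled difference of the 20 named windows kept its direction in all 160 recomputed values and stayed within 1.5 times in 141. Of the 19 that did not, 15 came from joining at 10 kb.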
